A study of Homo sapiens with 48 samples.

Results

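The TRAIL and Fas death receptor system is described here in HK-2 cells treated with 4 compounds that the study labels CsA, Fk, Ra and Nnm. Its 10 genes are the TRAIL ligand TNFSF10, its death receptors TNFRSF10A and TNFRSF10B, its decoy receptors TNFRSF10C and TNFRSF10D, the Fas receptor FAS, the TNF receptor TNFRSF1A, death receptor 6 (TNFRSF21), the caspase-8 inhibitor CFLAR and caspase-8 itself (CASP8). They were chosen by symbol, as all microarray probe sets for which the platform annotation gives one of these 10 symbols and no other. This found 41 probe sets among the 41091 that carry 1 symbol in the whole series, and 33 of them passed the filter on low values (log2 above 4 in at least 3 arrays), with at least 1 for each of the 10 genes. The other 8 probe sets did not pass. Each gene is represented by its passing probe set with the highest mean over all arrays, as 1 of 11356 genes tested.

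HK-2 is an established human line of immortalized kidney proximal tubule cells. RNA was hybridised to 48 arrays in 16 groups of 3, in 3 sets that each have their own vehicle controls. The CsA set, whose labels carry the note lab 3, holds CsA and its controls at 12 h and 48 h. The Fk and Ra set holds Fk, Ra and 1 shared control group at each of the same times, and the Nnm set holds a low dose, a high dose and 1 shared control group at 24 h and at 48 h. All cells were seeded 24 h before treatment and were close to confluent when the compound or the vehicle was added; the doses are given only as low and high for Nnm and not at all for the other compounds. The series places all 4 compounds in 1 class of kidney toxicants (Tox 1), and asks for signatures of toxicity. The labels call the 3 arrays of a group biological replicates, and nothing further is said of how separate their cultures were. Each p-value therefore measures spread between such arrays, in the main fit as 1 estimate per gene pooled over all 16 groups. All groups are 1 cell line, so a result holds for that line.

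TRAIL and Fas ligand are members of the tumour necrosis factor family that start apoptosis from the cell surface. When they bind TRAIL-R1 (TNFRSF10A), TRAIL-R2 (TNFRSF10B) or FAS, the receptor's death domain recruits the adaptor FADD, which brings procaspase-8 molecules together so that they activate each other and then the executioner caspases. The decoy receptors bind TRAIL without passing on a death signal, and CFLAR (c-FLIP), a relative of caspase-8, blocks the enzyme's activation at the receptor. In the kidney, proximal tubule cells carry these receptors, and toxic or ischaemic injury of the tubule is a setting in which the pathway is studied.

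Values are on the log2 scale, so that a difference of 1 is a 2-fold change. Because every gene has its own probes, levels are compared between groups for 1 gene and never between genes. In RNA from whole cultures, fewer cells that express a gene and less RNA per cell cannot be told apart. Of the 19 renal epithelial markers, 9 passed the filter, among them PAX8, DPP4, KRT8, KRT18, CDH6 and EPCAM, and the list's mean lay between 6.55 and 6.87 in the 16 groups. AQP1, LRP2, CUBN and ANPEP, which mark differentiated proximal tubule, did not pass. None of the 10 leukocyte markers and none of the 6 markers of other nephron segments that have a probe set passed. Of the endothelial markers 3 of 8 passed (PECAM1, ESAM and CLDN5, list mean 3.06 to 3.26), with means over the 48 arrays of 4.38, 4.05 and 3.82, close to the filter. Of the fibroblast markers 3 of 8 passed (COL1A1, DCN and LUM, list mean 4.91 to 5.62), with means of 8.12, 10.59 and 9.62, well above it. At Ra 48 h 1 of those 3 fibroblast markers was called lower, at high-dose Nnm 48 h 1 endothelial marker was called higher, and their part in the results was not tested. Pearson's r between arrays of a group was between 0.979 and 0.998, and no array was identical to another. The upper quartile was 6.20 on the second Ra 48 h array and 6.85 to 7.24 on the 47 others. Over all genes the median difference of Ra 48 h from its controls was -0.178, which turned to 0.0744 when each array was centred on its median over the genes tested; that scaling was chosen after seeing the data, and its values are given beside the Ra 48 h calls that it ends or adds among the 10 genes, and beside others named. In the Nnm set the second replicate departed least from its controls: at the high dose and 24 h its median size of difference over all genes was 0.228, against 0.514 and 0.490 in replicates 1 and 3.

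RefSeq's table for GRCh38.p14 holds windows around the start sites of 6 of the 10 genes, 13 windows in all (FAS and CASP8 have 3 each and CFLAR has 4), and none for the 4 TRAIL receptor genes, which lie next to one another in the order TNFRSF10B, TNFRSF10C, TNFRSF10D and TNFRSF10A. The 250 bases before the start are printed for TNFSF10, FAS and CASP8, whose RNA differed from control after 48 h of Ra with every array left out in turn. They are read 5' to 3' along the gene, for FAS and CASP8 from the first listed start, and capitals mark the motif letters searched for.
TNFSF10, chr3:172523431-172523680, minus strand: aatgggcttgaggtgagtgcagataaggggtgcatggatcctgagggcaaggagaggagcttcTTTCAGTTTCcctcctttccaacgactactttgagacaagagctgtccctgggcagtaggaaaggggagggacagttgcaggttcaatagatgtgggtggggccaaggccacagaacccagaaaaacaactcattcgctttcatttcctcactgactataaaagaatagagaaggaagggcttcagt
FAS, chr10:88990548-88990797, plus strand: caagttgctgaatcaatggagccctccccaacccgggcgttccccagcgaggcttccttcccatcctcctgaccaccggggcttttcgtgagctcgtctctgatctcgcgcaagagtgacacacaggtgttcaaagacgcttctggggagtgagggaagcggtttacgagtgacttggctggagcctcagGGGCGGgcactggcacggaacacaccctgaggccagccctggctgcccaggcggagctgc
CASP8, chr2:201233213-201233462, plus strand: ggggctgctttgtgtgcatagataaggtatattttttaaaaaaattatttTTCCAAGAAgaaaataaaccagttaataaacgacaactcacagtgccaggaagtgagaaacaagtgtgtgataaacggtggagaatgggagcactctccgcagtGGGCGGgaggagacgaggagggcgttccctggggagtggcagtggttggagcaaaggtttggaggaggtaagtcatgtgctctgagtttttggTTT

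Both strands of each 300-base window (250 bases before the start and 50 after it) were searched for 7 sets of letters: GTAAACA (forkhead, held by 3.42% of all windows), GAAA, 2 bases of any kind and GAAA (interferon-stimulated response element, 3.57%), TTCNNNGAA (STAT, 7.66%), GGGCGG (GC box, 45.0%), GGGA, 2 bases of any kind and TTCC (NF-kappaB, 1.61%), TGATGCAAT (CHOP with C/EBP, 0.236%) and TGACGTCA (cyclic AMP response element, 1.85%), over 35116 windows of that length. The TNFSF10 window holds the interferon-stimulated response element letters on the opposite strand, so that the printed strand reads TTTCAGTTTC, 187 bases before the start. The first FAS window holds a GC box 60 bases before the start. The second FAS window overlaps the first and holds the same box, 176 bases before its own start. The third FAS window holds GC boxes 63 and 52 bases before its start. The first CASP8 window holds TTCCAAGAA 200 bases before the start (a match to TTCNNNGAA), a GC box 96 bases before it and the interferon-stimulated response element letters on the opposite strand from 3 bases before it, so that only their first letters close the printed stretch. CFLAR (2 of 4 windows) and TNFRSF21 hold GC boxes, and no other match was found in the 13 windows. These matches describe letters, and no binding was measured.

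**Figure D1:**
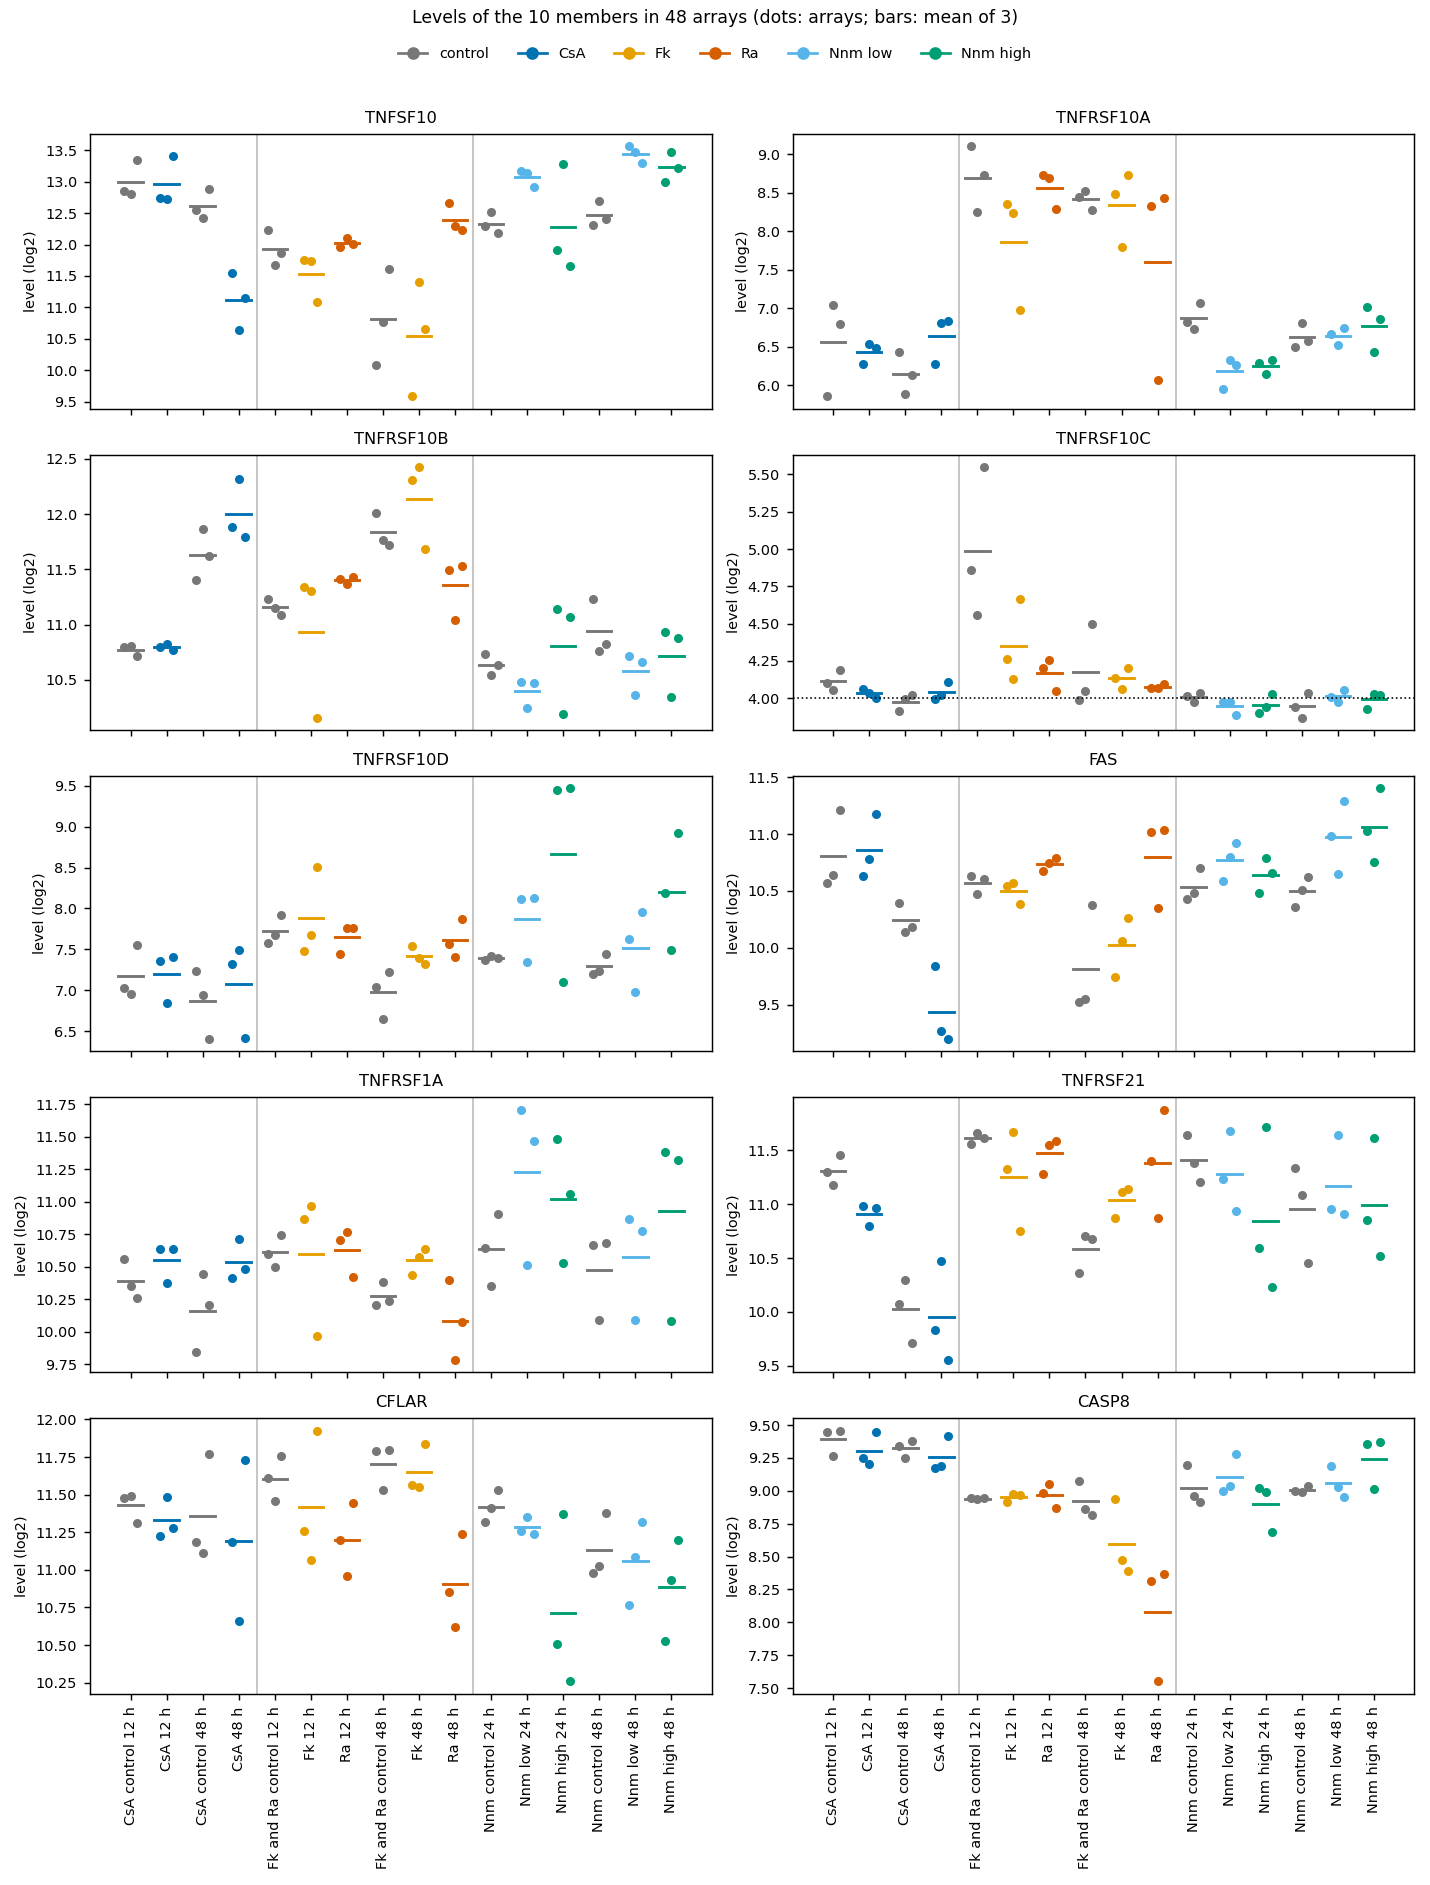
Log2 level (vertical axis) of each of the 10 genes in the 16 groups (horizontal axis, 3 sets side by side), with a dot for each of the 3 arrays and a bar at their mean; the dotted line in the TNFRSF10C panel is the filter at log2 4. TNFSF10 ranges from 10.55 (Fk 48 h) to 13.45 (Nnm low, 48 h), and the group means of TNFRSF10A are higher in the Fk and Ra set than in the other sets.

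Against their controls 6 of the 10 genes were called in at least 1 of the 10 treatment comparisons. The same count was not made over all genes, and single comparisons called up to 23.1% of all genes (high-dose Nnm, 24 h). TRAIL's RNA (TNFSF10) was below control after 48 h of CsA and above control after 48 h of Ra. At Ra 48 h FAS was above control as well, and the 2 intracellular genes, CFLAR and CASP8, were below it. From 12 h to 48 h the means of the controls that Ra shares fell from 11.93 to 10.82 for TNFSF10 and from 10.57 to 9.82 for FAS. The Ra means went from 12.03 to 12.39 and from 10.74 to 10.80. The decoy receptor TNFRSF10D rose and CFLAR fell after 24 h of high-dose Nnm, and the decoy TNFRSF10C was lower after 12 h of Ra. No gene of the 10 was called after Fk. Calls were made with limma at a Benjamini-Hochberg adjusted p under 0.05 over all 11356 genes, in a fit over all 48 arrays that takes 1 mean per group. A value in brackets after a named array or setting is the limma adjusted p there.

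By comparison with its own controls, CsA gave 0 of 10 calls at 12 h, where 0% of all genes were called; at an unadjusted p under 0.05 it gave 0 of the 10, against 0.317% of all genes. At 48 h 1 of 10 was called, against 1.02% of all genes. Fk gave 0 of 10 at 12 h and 0 of 10 at 48 h, with 0% of all genes called at both times; at an unadjusted p under 0.05 it gave 2 and 1 of the 10, against 6.27% and 2.74% of all genes (712 and 311). Ra gave 1 of 10 at 12 h (0.0704% of all genes) and 4 of 10 at 48 h (18.5% of all genes). Low-dose Nnm gave 0 of 10 at 24 h (8.29% of all genes) and 0 of 10 at 48 h (5.22%); at an unadjusted p under 0.05 it gave 1 and 2 of the 10, against 23.7% and 20% of all genes. High-dose Nnm gave 2 of 10 at 24 h (23.1%) and 0 of 10 at 48 h (16.8%); at 48 h it gave 3 of the 10 at an unadjusted p under 0.05, against 30.6% of all genes. At Ra 48 h the share of the 10 genes called was above that of all genes. At the high Nnm dose it was below. With 10 genes, 1 call more or less moves the share by 10 points. These counts leave out the pairing of arrays by replicate number in the CsA and Nnm sets. With the replicate number as a block more of the 10 genes were called at CsA 48 h, at low-dose Nnm at both times and at high-dose Nnm 48 h. Those counts are given with the processing alternatives. The 10 genes were also chosen with earlier results of these data known, so the shares are not an independent comparison.

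**Figure D2:**
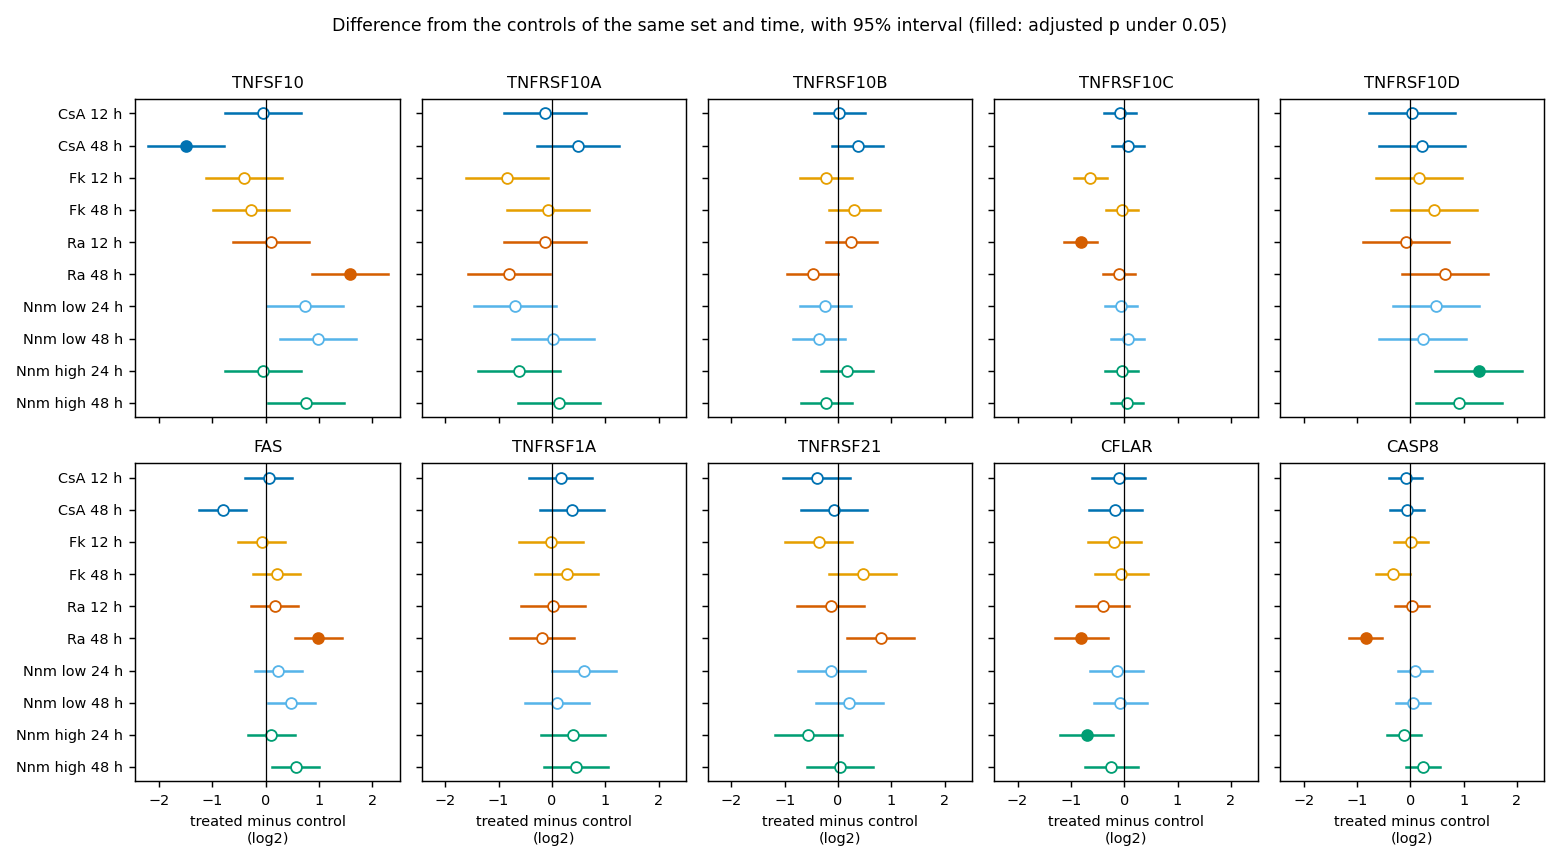
Difference from control (log2, horizontal axis) of each of the 10 genes in the 10 treatment comparisons (vertical axis). Lines are 95% confidence intervals from the limma fit, and filled symbols mark an adjusted p under 0.05. TNFSF10 lies at -1.50 at CsA 48 h and at 1.57 at Ra 48 h, and the Fk symbols are all open.

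TNFSF10 encodes TRAIL, the ligand. At CsA 48 h its 3 arrays read 11.55, 10.64 and 11.15, against 12.55, 12.42 and 12.89 in the controls. All 3 treated arrays were below all 3 controls; 2 groups without overlap, in either direction, were found for 14.2% of all genes here. TNFSF10 fell by 1.50 (SE 0.35, 95% interval -2.22 to -0.79), 2.84-fold, with a limma adjusted p of 0.0246. The difference lay between -1.72 and -1.27 with each array left out in turn. The call did not hold without CsA replicate 2 (limma adjusted p = 0.368) or 3 (0.072), or without control replicate 1 (0.168) or 3 (0.0872), nor when only the arrays of the CsA set (0.147) or of this comparison (0.576) were fitted. The 3 TNFSF10 probe sets gave differences from -1.54 to -1.47, and 1 of them was called. At 12 h the CsA arrays read 12.75, 12.72 and 13.41 and the controls 12.86, 12.81 and 13.35, with overlapping values and a difference of -0.04.

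With 48 h of Ra TNFSF10 was higher. The Ra arrays read 12.66, 12.30 and 12.23 and their controls 10.09, 10.76 and 11.61, so that every treated array was above every control, although the controls spread over more than 1 log2 unit. The Ra and control groups do not overlap for 22.3% of all genes. The difference from control was 1.57 (SE 0.35, 95% interval 0.86 to 2.29), 2.98-fold, with a limma adjusted p of 0.00234, and 1.83 with arrays centred over the genes tested. It was called with any 1 array left out (highest limma adjusted p 0.041) and for all 3 probe sets (1.27 to 1.57), and was not called in a fit of these 6 arrays alone (0.273). Fk shares these controls and read 9.58, 11.40 and 10.66, a difference of -0.27 with overlapping groups. At 12 h the Ra arrays read 11.97, 12.11 and 12.01, the Fk arrays 11.76, 11.74 and 11.09 and the controls 12.24, 11.68 and 11.86, and neither difference was called.

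After Nnm TNFSF10 gave no call. At the low dose the 3 arrays read 13.16, 13.15 and 12.92 at 24 h, against 12.30, 12.52 and 12.19 in the controls, and 13.57, 13.48 and 13.30 at 48 h, against 12.32, 12.70 and 12.41. Both low-dose groups lay wholly above their controls, as did the groups of 38% and 35% of all genes in one direction or the other at 24 h and 48 h. The differences were 0.74 (limma adjusted p = 0.193) and 0.97 (limma adjusted p = 0.0992). With the replicate number as a block, as the numbers pair the arrays of this set, the 48 h low-dose difference was called (limma adjusted p = 0.0478). The high-dose arrays at 24 h read 11.91, 13.28 and 11.66: replicates 1 and 3 were below every control and the second was above every control. At 48 h they read 12.99, 13.48 and 13.22, all above the controls (the groups do not overlap for 36.1% of all genes), with a difference of 0.76 (limma adjusted p = 0.138). Ordered by group mean, TNFSF10 ran from 13.45 at Nnm low 48 h down to 10.55 at Fk 48 h, and every pair of neighbouring groups in that order overlapped.

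FAS encodes the receptor of Fas ligand. It was higher than in the controls after 48 h of Ra, with arrays at 11.02, 10.35 and 11.03 against 9.53, 9.55 and 10.37. Ra replicates 1 and 3 were above all controls, and the second lay just below the highest control, so the groups overlapped. The difference from control was 0.98 (SE 0.22, 95% interval 0.54 to 1.42), 1.97-fold, with a limma adjusted p of 0.00215. Centred over the genes tested it was 1.23. All 4 FAS probe sets that passed the filter were called (0.97 to 1.20), and the call held with any 1 array left out (highest limma adjusted p 0.0282) but not in a fit of the 6 arrays alone (0.296). Fk at 48 h read 9.75, 10.06 and 10.26, a difference of 0.20 that was not called.

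After 48 h of CsA, FAS read 9.84, 9.27 and 9.20 and its controls 10.39, 10.14 and 10.19. All treated arrays lay below all controls. The difference of -0.81 (SE 0.22) missed the threshold (limma adjusted p = 0.0612) and passed it with the replicate number as a block (0.0171); the numbers pair the arrays of this set. At 12 h neither CsA (0.06), Fk (-0.07) nor Ra (0.17) gave a call. At 48 h of Nnm the low-dose arrays read 10.98, 10.65 and 11.29, the high-dose arrays 11.03, 10.76 and 11.40 and the controls 10.36, 10.51 and 10.62. All arrays of both doses were above all controls, in comparisons where 35% (low dose) and 36.1% (high dose) of all genes do not overlap. The differences were 0.48 (limma adjusted p = 0.202) and 0.56 (0.0684); the second was called with the block (0.0329). At 24 h they were 0.23 and 0.11. The group means ran from 11.06 (Nnm high, 48 h) to 9.44 (CsA 48 h), with overlap between all neighbours in that order.

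**Figure D3:**
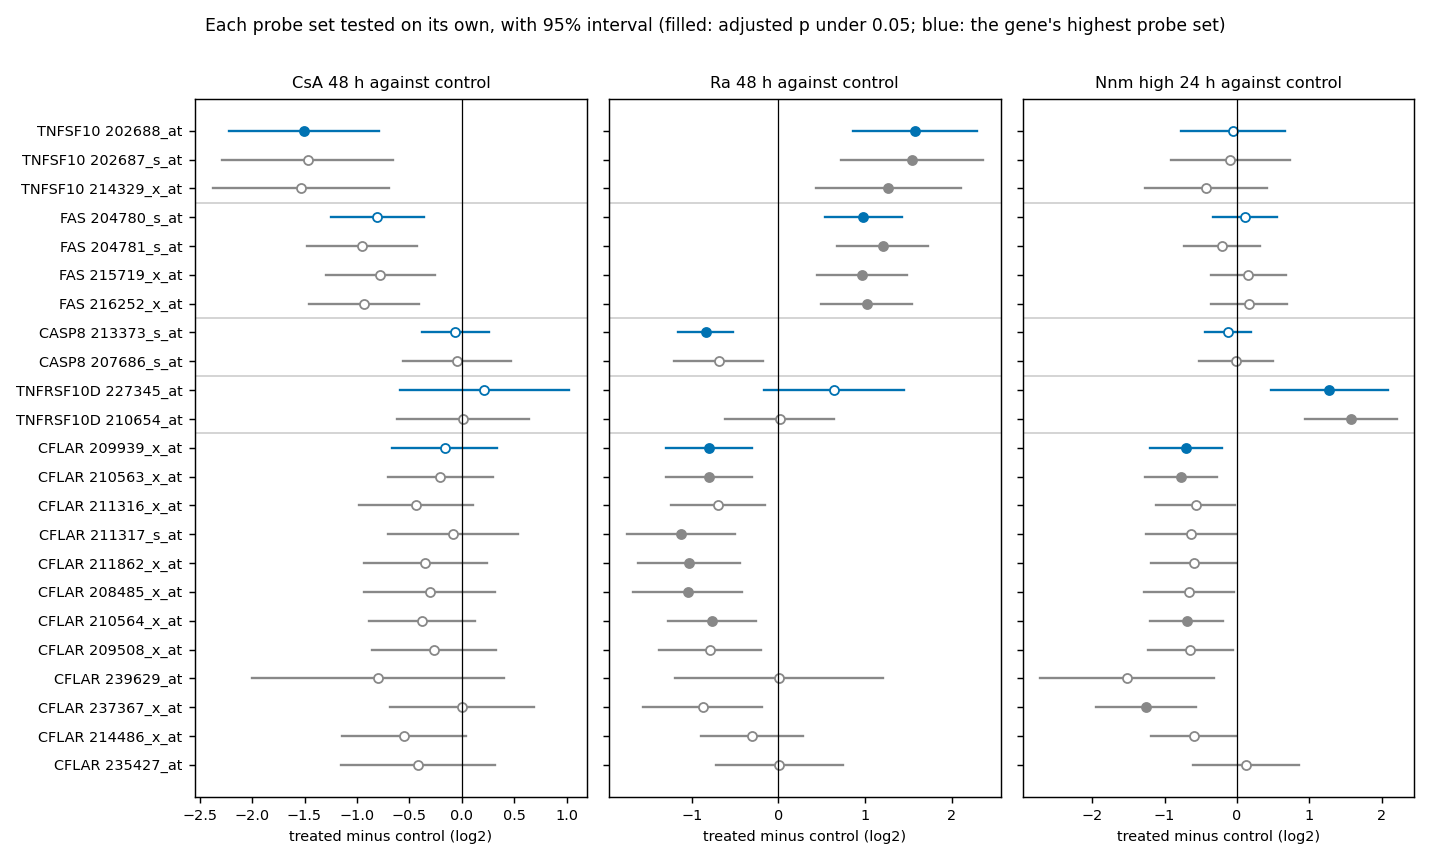
Difference from control (log2, horizontal axis) with 95% confidence intervals for each probe set of TNFSF10, FAS, CASP8, TNFRSF10D and CFLAR that passed the filter, at CsA 48 h, Ra 48 h and Nnm high 24 h; filled symbols mark calls. At Ra 48 h the 3 TNFSF10 and 4 FAS probe sets lie above 0, while the 12 CFLAR probe sets run from -1.13 to 0.0086.

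The 2 TRAIL death receptors gave no call against controls. TNFRSF10B (TRAIL-R2, DR5) read 11.88, 12.32 and 11.79 after 48 h of CsA and 11.41, 11.86 and 11.62 in the controls, a difference of 0.37 with overlap. After 48 h in the Fk and Ra set it read 12.31, 12.42 and 11.68 with Fk, 11.49, 11.04 and 11.53 with Ra and 12.01, 11.77 and 11.72 in the controls. All 3 Ra arrays lay below all 3 controls, with a difference of -0.48 (limma adjusted p = 0.157), or -0.23 with arrays centred over the genes tested. In the Nnm set its group means lay between 10.40 and 10.94.

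TNFRSF10A (TRAIL-R1, DR4) had group means of 6.15 to 6.64 in the CsA set and 6.18 to 6.87 in the Nnm set. In the Fk and Ra set both control groups were higher, at 8.70 and 8.42. These are arrays of different sets, so this difference between controls cannot be told apart from a difference between sets. The Ra 48 h arrays read 8.33, 6.06 and 8.43: the second, the array of lowest upper quartile, was more than 2 log2 units below the others. The difference of -0.81 was not called (limma adjusted p = 0.13), and it was -0.06 without that array and with arrays centred over the genes tested. A second TNFRSF10A probe set was called at Nnm high 48 h (0.87, limma adjusted p = 0.0452), where the representative one gave 0.14.

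Of the decoys, TNFRSF10D carries a shortened death domain. It was higher after 24 h of high-dose Nnm, with arrays at 9.45, 7.10 and 9.47 against 7.37, 7.41 and 7.40 in the controls. Replicates 1 and 3 were about 2 log2 units above the controls and the second was below all of them. The rise was 1.28 (SE 0.40, 95% interval 0.47 to 2.09), 2.43-fold, with a limma adjusted p of 0.0189, and both its probe sets were called (1.28 and 1.58). The second probe set was dim: over 48 arrays its lowest value was 4.66, its median 4.69 and its highest 7.22. Without replicate 2 of the whole Nnm set the rise of the representative probe set was 2.08 (limma adjusted p = 1.46e-05), a choice made after seeing the data. The call did not hold without high-dose replicate 1 (0.195) or 3 (0.185) or control replicate 1 (0.053) or 3 (0.0546), where the difference went down to 0.88, nor in a fit of the Nnm set alone (0.0807) or of the 6 arrays alone (0.214). At 48 h the high dose read 8.18, 7.49 and 8.92 against 7.19, 7.23 and 7.45. Every high-dose array was above every control, as the groups of 36.1% of all genes do not overlap there. The difference of 0.91 was not called (limma adjusted p = 0.114), but was with the replicate block (0.0365) and without replicate 2 of the set (1.23, 0.00577). At the low dose it read 8.11, 7.35 and 8.13 at 24 h and 7.62, 6.98 and 7.95 at 48 h, again with the second array lowest. In the CsA set and the Fk and Ra set the group means lay between 6.86 and 7.88, with no call against controls.

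TNFRSF10C, the decoy without a cytoplasmic part, was close to the filter throughout: 34 of 48 arrays were above log2 4. Its Ra 12 h arrays read 4.20, 4.25 and 4.05 and the controls 4.86, 4.56 and 5.55. No array of the 2 groups overlapped, as for 32.2% of genes in this comparison. TNFRSF10C fell by 0.82 (SE 0.15), 1.76-fold, with a limma adjusted p of 0.0153. The control group at 12 h (4.99 ± 0.51, SD, n = 3) was the highest of all groups for this gene, and all groups but it and Fk 12 h (4.35) had means from 3.95 to 4.18. The call did not hold without control replicate 3 (0.286), Ra replicate 1 (0.114) or Ra replicate 3 (0.0595), nor in a fit of the set alone (0.257) or the 6 arrays alone (0.0979).

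TNFRSF1A, the main TNF receptor, and TNFRSF21 (death receptor 6), 2 further receptors with a death domain, gave no call against controls. TNFRSF1A read 11.71, 10.52 and 11.47 after 24 h of low-dose Nnm and 10.65, 10.35 and 10.91 in the controls. In each numbered pair the treated array was higher, by 1.06, 0.16 and 0.56. The difference of 0.60 (limma adjusted p = 0.212) was called with the replicate block (0.0363). At the high dose its differences were 0.39 at 24 h and 0.45 at 48 h, where replicate 2 (10.09 in both treated and control cells) was level with its control. In the CsA set TNFRSF1A had group means from 10.16 to 10.55 and in the Fk and Ra set from 10.09 to 10.63, with differences from control between -0.19 (Ra 48 h) and 0.38 (CsA 48 h). TNFRSF21 read 11.40, 10.87 and 11.88 after 48 h of Ra and 10.36, 10.71 and 10.68 in the controls. The second Ra array was again the lowest, and all 3 were above all controls. The difference of 0.80 was not called (limma adjusted p = 0.0645), but was with arrays centred over the genes tested (1.05, 0.0157). Without replicate 2 of the Nnm set, TNFRSF21 was lower at the high dose and 24 h (-1.01, limma adjusted p = 0.0114), against -0.56 with all arrays.

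CFLAR, the inhibitor, fell in 2 comparisons. After 48 h of Ra it read 10.85, 10.62 and 11.24 and in the controls 11.79, 11.53 and 11.80. All Ra arrays were below all controls. It fell by 0.80 (SE 0.25), 1.74-fold, with a limma adjusted p of 0.0204. With arrays centred over the genes tested the difference was -0.55 and was no longer called (0.137), and the call did not hold either with quantile normalization (0.073), without control replicate 1 (0.0837), without Ra replicate 2 (0.13) or in a fit of the 6 arrays alone (0.287). After 24 h of high-dose Nnm CFLAR read 10.51, 11.37 and 10.26 against 11.32, 11.41 and 11.53. Replicates 1 and 3 were below all controls and the second lay among them. It fell by 0.71 (SE 0.25), 1.63-fold, with a limma adjusted p of 0.0341. The call held without high-dose replicate 2 and with replicate 2 of the whole set left out (-1.04, 0.00721), but not without control replicate 1 (0.0601), 2 (0.0695) or 3 (0.111), high-dose replicate 1 (0.17) or 3 (0.25), with no filter on low values (0.0559) or in a fit of the 6 arrays alone (0.156).

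CFLAR has the most probe sets of the 10 genes, 12 past the filter, and they did not all move together. At Ra 48 h 10 were below 0 and 2 above it, and 6 were called lower; at Nnm high 24 h 11 were below 0 and 4 were called lower, from -1.52 to 0.12 over all 12. CFLAR encodes a long and a short form, and which probe sets read which form was not analysed here.

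CASP8, the initiator caspase of the pathway, fell after 48 h of Ra, where it read 8.31, 7.55 and 8.37 against 9.08, 8.86 and 8.82 in the controls. All Ra arrays were below all controls, and the second was the lowest. It fell by 0.84 (SE 0.16), 1.79-fold, with a limma adjusted p of 0.000491. The difference was -0.59 with arrays centred over the genes tested (limma adjusted p = 0.00159) and was called with any 1 array left out (highest 0.0109), but not in a fit of the 6 arrays alone (0.293). The other CASP8 probe set past the filter gave -0.69 without a call. Fk at 48 h read 8.94, 8.47 and 8.39, with a difference of -0.32 that was not called. In the CsA set and the Nnm set its group means lay between 8.90 and 9.39, and no difference was called.

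Fk and Ra were then compared directly, since their groups were treated for the same times with 1 shared control. At 12 h 0 of the 10 genes were called, with 0.00881% of all genes called; at an unadjusted p under 0.05 there were 0 of the 10 and 7.71% of all genes. At 48 h 5 of 10 differed, against 17.3% of all genes. TNFSF10 was lower with Fk than with Ra by 1.85 (3.6-fold, limma adjusted p = 0.000791) and FAS by 0.78 (1.71-fold, 0.0124), and all 3 Fk arrays lay below all 3 Ra arrays for both, where 21% of all genes do not overlap. TNFRSF10B (0.78, limma adjusted p = 0.0205), CFLAR (0.75, 0.0313) and CASP8 (0.52, 0.0191) were higher with Fk. With arrays centred over the genes tested the first 2 were called (-2.14 and -1.07) and the other 3 were not (adjusted p = 0.13, 0.232 and 0.214). With single arrays left out, the TNFSF10 call held each time (highest limma adjusted p 0.0231). The FAS call was lost without Fk replicate 1 (0.111) or Ra replicate 3 (0.0541), that of TNFRSF10B without Fk replicate 1 (0.118) or 2 (0.112) or Ra replicate 2 (0.161), and that of CASP8 without Fk replicate 1 (0.21) or Ra replicate 2 (0.306). The CFLAR call held only without Ra replicate 3, with adjusted p up to 0.194. In a fit of these 6 arrays alone none of the 5 was called; TNFSF10 then had a limma adjusted p of 0.302.

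The CsA and Ra effects at 48 h, each taken against its own controls, differed for 3 of 10 genes (16.5% of all genes). For TNFSF10 the CsA effect was lower than the Ra effect by 3.08 (difference -3.08, SE 0.50, 95% interval -4.09 to -2.07, limma adjusted p = 0.000206). For FAS the difference of effects was -1.79 (SE 0.31, limma adjusted p = 0.000313). Both were called with any of the 12 arrays left out, and with arrays centred over the genes tested (-3.29 and -2.002). For CASP8 it was 0.78 (SE 0.22, limma adjusted p = 0.014), a call lost without control replicate 1 of the Fk and Ra set (0.0566) or Ra replicate 2 (0.0685) and kept with that centring (0.56, 0.0257). None of the 3 was called when only the 4 groups were fitted (0.0865, 0.106 and 0.2). At 12 h 0 of 10 were called between CsA and Ra (0% of all genes), and 0 of 10 between CsA and Fk at 12 h (0%) and at 48 h (0%), where the differences of effects were -1.23 for TNFSF10 (limma adjusted p = 0.681) and -1.01 for FAS (0.43). At an unadjusted p under 0.05 limma gave 1 of 10 for CsA against Ra at 12 h (1.91% of all genes), and for CsA against Fk 1 of 10 at 12 h (1.45%) and 2 of 10 at 48 h (6.13%).

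Whether an effect changed between times was tested as well. For Ra 2 of 10 genes had another effect at 48 h than at 12 h (3.62% of all genes): TNFRSF10C, where the effect was higher at 48 h by 0.72 (SE 0.21, limma adjusted p = 0.0472), and CASP8, where it was lower (-0.87, SE 0.22, 0.0235). For TNFSF10 the change was 1.47 (limma adjusted p = 0.0804). The TNFRSF10C call was lost in 8 and the CASP8 call in 6 of the 12 fits that leave out 1 array (limma adjusted p up to 0.172 and 0.108), and both in a fit of the 4 groups alone (0.287 and 0.186). With arrays centred over the genes tested TNFRSF10C (0.026) and FAS (1.09, 0.0342) were called and CASP8 was not (0.0556). No gene of the 10 was called for CsA (0% of all genes), Fk (0%), low-dose Nnm (0%) or high-dose Nnm (0.00881%). At an unadjusted p under 0.05 limma gave 2 of 10 for CsA (2.88% of all genes), 1 for Fk (2.97%), and 0 for low-dose (1.93%) and high-dose Nnm (6.35%). Between the 2 Nnm doses 0 of the 10 were called at 24 h (0.00881% of all genes) or 48 h (0.0176%), and 2 and 0 at an unadjusted p under 0.05 (7.12% and 3.5%); for TNFSF10 at 24 h the high dose was lower by 0.79 (limma adjusted p = 0.641).

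The vehicle controls themselves moved over time. In the CsA set 2 of 10 genes differed between 48 h and 12 h (13.7% of all genes), in the Fk and Ra set 5 of 10 (19.8%), and in the Nnm set, between 48 h and 24 h, 0 of 10 (0%; 0 of 10 at an unadjusted p under 0.05, against 5.85% of all genes). TNFRSF21 fell in both sets, by 1.28 in the CsA set (limma adjusted p = 0.0054) and 1.03 in the Fk and Ra set (0.016). TNFRSF10B rose in both, by 0.86 (0.0144) and 0.68 (0.0395). In the Fk and Ra set TNFSF10 fell by 1.11 (limma adjusted p = 0.0232), FAS by 0.75 (0.0123) and TNFRSF10C by 0.81 (0.000275). In the CsA set the FAS difference was -0.57 (limma adjusted p = 0.074, and 0.0353 with the replicate block) and the TNFSF10 difference -0.39, which was not called.

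Of these control calls, TNFRSF21 in the CsA set and TNFRSF10C in the other set held with any 1 array left out. In the Fk and Ra set the TNFSF10 call was lost without control replicate 1 of 12 h (0.101) or of 48 h (0.22), replicate 3 of 12 h (0.0542) or replicate 2 of 48 h (0.0707); FAS was lost without replicate 1 (0.103) or 2 (0.0852) of 48 h, TNFRSF21 without replicate 2 of 12 h (0.0505) or 1 of 48 h (0.0866), and TNFRSF10B in 5 of 6 fits (up to 0.163). In the CsA set TNFRSF10B was lost without control replicate 3 of 12 h (0.0585) or 2 of 48 h (0.0922).

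The treated cells, compared between 48 h and 12 h in contrasts added after seeing the data, gave 4 of 10 calls for CsA (27.8% of all genes), 2 of 10 for Fk (22.3%), 1 of 10 for Ra (1.23%), and 0 of 10 between 48 h and 24 h for low-dose (0.0969%) and high-dose Nnm (0.696%), which at an unadjusted p under 0.05 gave 1 and 2 of 10 (4.82% and 14.6% of all genes). With CsA, TNFSF10 fell by 1.85 (limma adjusted p = 0.000162), FAS by 1.43 (9.29e-06) and TNFRSF21 by 0.96 (0.0179), while TNFRSF10B rose by 1.20 (0.000253). The first, second and last of these held with any 1 array left out, and TNFRSF21 was lost in 4 of 6 fits (up to 0.105). With Fk, TNFSF10 fell by 0.98 (0.0418, lost in 4 of 6 fits with 1 array left out, up to 0.407) and TNFRSF10B rose by 1.21 (0.00047, held in all 6). With Ra the difference over time was 0.37 for TNFSF10, 0.06 for FAS, -0.09 for TNFRSF21 and -0.05 for TNFRSF10B, none of them called. CASP8 was the 1 gene called with Ra, and fell by 0.89 (limma adjusted p = 0.00233, and 0.0737 without Ra 48 h replicate 2). TNFRSF10A differed by -0.96 (limma adjusted p = 0.164) and TNFRSF1A by -0.55 (0.326). With arrays centred over the genes tested CASP8 was called at -0.63 (limma adjusted p = 0.0105), TNFSF10 and FAS were at 0.62 and 0.32, TNFRSF21 and TNFRSF10B turned to 0.16 and 0.21, and none of these 4 was called. In the same interval the controls that Ra shares had fallen in TNFSF10 and FAS, so the higher levels at Ra 48 h against control stand beside lower controls at 48 h than at 12 h: the Ra mean for TNFSF10 was 12.39 at 48 h and 12.03 at 12 h, and the control mean 10.82 and 11.93.

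**Figure D4:**
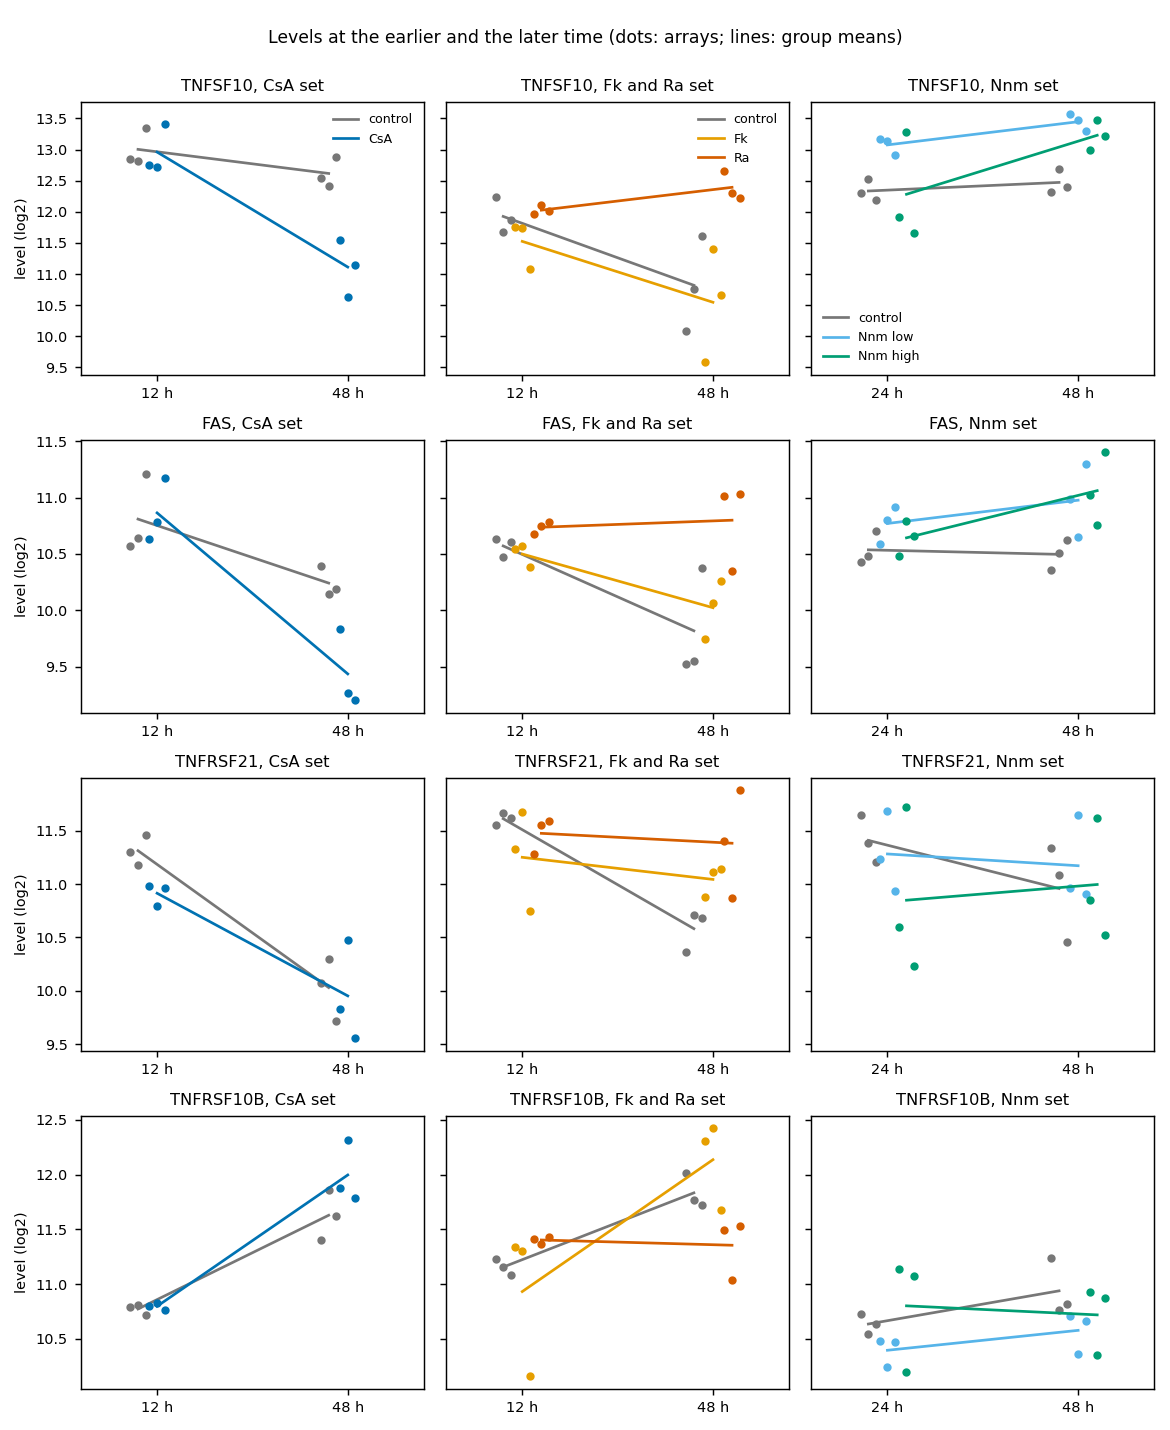
Log2 level (vertical axis) of TNFSF10, FAS, TNFRSF21 and TNFRSF10B at the early time (12 h, or 24 h for Nnm) and at 48 h (horizontal axis) in controls and treated cells of the 3 sets; dots are arrays and lines join group means. In the Fk and Ra set the TNFSF10 control mean goes from 11.93 to 10.82 while the Ra mean goes from 12.03 to 12.39.

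The rest of the pathway was read from a list of 54 further genes by role, 34 of which were measured: 0 of 6 ligands, 4 of 9 other receptors, 7 of 11 adaptors and kinases, 12 of 14 caspases and effectors and 11 of 14 inhibitors. At CsA 12 h, Fk 12 h, Fk 48 h and Ra 12 h 0 of 34 were called. At CsA 48 h 1 was called lower (2.94% of the 34, beside 1.02% of all genes): CASP2, a caspase tied to DNA damage, fell by 0.89 (limma adjusted p = 0.0181, and 0.276 without control replicate 1, 0.228 and 0.111 without CsA replicate 2 or 3). With 48 h of Ra 2 were called higher and 4 lower, 17.6% of the 34 beside 18.5% of all genes, so that the list was called about as often as any genes, and the median of the 34 was -0.267, beside -0.178 over all genes. CASP2 rose by 0.76 (limma adjusted p = 0.00704), from 8.78, 9.02 and 9.33 in the controls to 9.75, 9.41 and 10.24. All 3 Ra arrays were above the controls. PARP1, a DNA repair enzyme cut by caspases, rose by 0.51 (0.0161). The mitochondrial proteins CYCS (cytochrome c, fell by 0.62, 0.00999) and DIABLO (fell by 0.46, 0.0291), which promote caspase activity once released, the caspase inhibitor XIAP (fell by 0.94, 0.0121) and the receptor TNFRSF9 (fell by 1.78, 0.0305, its Ra mean below the filter at 3.38) were lower. With arrays centred over the genes tested CASP2 and PARP1 were called (1.01 and 0.77) and the 4 lower ones were not (adjusted p 0.0606 to 0.18).

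After Nnm, 1 of the 34 was called higher and 1 lower at the low dose at both times, 3 higher and 5 lower at the high dose at 24 h, and 2 higher and 3 lower at 48 h. These are 5.88%, 5.88%, 23.5% and 14.7% of the 34, beside 8.29%, 5.22%, 23.1% and 16.8% of all genes, shares that lie near the background. CYCS was called lower in all 4 Nnm comparisons, by 0.79 and 0.65 at the low dose and by 0.81 at both times at the high dose (limma adjusted p between 0.000989 and 0.0187). At high dose 24 h it read 12.11, 12.35 and 12.24 against 13.03, 12.99 and 13.12, with no overlap (as for 38% of all genes) and with the second replicate lower too. FAIM, an inhibitor of Fas-induced death, was called higher at the low dose (0.74 at 24 h, limma adjusted p = 0.0349, and 0.93 at 48 h, 0.00941) and at the high dose at 48 h (1.24, 0.000308), where it read 11.12, 10.10 and 10.92 against 9.38, 9.60 and 9.44. The second replicate was the lowest of the treated arrays, and still above the controls. Of the inhibitors, BIRC6, a large ubiquitin ligase that acts on caspases (fell by 0.64, limma adjusted p = 0.0122, and up to 0.129 with 1 array left out), and SHARPIN, a part of the ubiquitin ligase that dampens TNF-induced death (fell by 0.48, 0.0316, up to 0.158), were called lower in the same comparison. At high dose 24 h the apoptosome genes CASP9 (1.12, limma adjusted p = 0.0123) and APAF1 (0.97, 0.0217) rose, and PARP1 (fell by 0.64, 0.00272), the adaptor TRADD (fell by 0.65, 0.00841), the receptor TNFRSF12A (fell by 1.02, 0.0369) and SHARPIN (fell by 0.55, 0.0102), were lower. The neurotrophin receptor NGFR was called higher at both times with the high dose (2.93 at 24 h and 2.43 at 48 h). Its arrays read 6.77, 2.45 and 6.91 at 24 h and 6.83, 2.44 and 5.36 at 48 h. The controls read 2.43 to 2.46, and replicate 2 stayed at that level, under the filter of log2 4. Both differences thus rest on replicates 1 and 3. Neither call held without high-dose replicate 1 (limma adjusted p = 0.0659 at 24 h and 0.257 at 48 h) or 3 (0.0623 and 0.0962). Both calls are in the counts above.

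Regulators of these promoters were listed as well, 13 of them measured; 1 was called at CsA 48 h (7.69%, beside 1.02% of all genes), 3 at Ra 48 h (23.1%, beside 18.5%) and 5 at high-dose Nnm 24 h (38.5%, beside 23.1%). DDIT3 (CHOP), a stress factor known to raise TNFRSF10B, rose in vehicle controls from 12 h to 48 h by 5.39 in the CsA set and 4.97 in the Fk and Ra set (limma adjusted p = 4.48e-05 and 4.88e-05), the same sets in which TNFRSF10B rose. After 48 h of Ra it read 12.01, 9.40 and 8.39 against 13.90, 13.73 and 12.66. It fell by 3.50 (limma adjusted p = 0.00243), with all Ra arrays below all controls, and the call held with any 1 array left out and with arrays centred over the genes tested (-3.25); Fk at 48 h read 13.49, 13.56 and 12.84, with a difference of -0.13. ATF4, which acts before DDIT3 in the stress response, fell by 1.03 (0.00965, and -0.77 and 0.044 with that centring), and IRF1, a factor induced by interferon, fell by 1.86 (0.0347, and 0.0618 with arrays centred over the genes tested) at Ra 48 h. At high-dose Nnm 24 h DDIT3 was higher by 2.19 (limma adjusted p = 0.0408), with arrays at 11.39, 8.00 and 11.08 and the second at the control level (7.98, 8.06 and 7.87). ATF4 (0.76, 0.0448) and FOXO3, a forkhead factor (0.50, 0.0178), were called there too. FOXO1 was called higher as well, but both its group means, 3.65 and 2.80, lay under the filter and 1 of 3 treated arrays was above it (4.53), so no difference is given. In the 8 other comparisons with controls DDIT3 differed by -0.14 to 1.10, and in the 9 others each IRF1 differed by -0.32 to 1.47 and FOXO3 by -0.23 to 0.29, without a call. E2F1, a cell cycle factor, fell by 1.13 at CsA 48 h (limma adjusted p = 0.0107). Any part of these regulators in the values of the 10 genes was not tested.

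Of 12 measured interferon-stimulated genes, 1 was called at Ra 12 h, IFIT2 (2.12, limma adjusted p = 0.0263), where all 12 had a positive difference with a median of 0.724, beside 0.0151 over all genes, and TNFSF10 differed by 0.10. OAS3 was called higher at Ra 48 h (0.96, and 1.22 with arrays centred over the genes tested) and IRF9 lower (fell by 0.95, and not called with arrays centred over the genes tested, 0.108). With Nnm 1 was called higher at each low-dose time (OAS1, 1.27, and IFIT2, 1.46). At high dose 24 h OAS1 (1.53), IFIT2 (1.49) and IFIH1 (1.24) rose and OAS3 fell by 0.69, and at high dose 48 h 5 rose, led by IFIT2 (1.89), OAS1 (1.61), IFIT1 (1.33) and IFI44 (1.14). The calls were 4 and 5 of 12 (33.3% and 41.7%), beside 23.1% and 16.8% of all genes; at Ra 48 h they were 2 of 12 (16.7%, beside 18.5%), and at the low dose 1 of 12 each (8.33%, beside 8.29% and 5.22%). CsA 48 h gave 1 call, OAS3, which fell by 1.00 (limma adjusted p = 0.0483, and 0.066 with arrays so centred). Over all these lists 48 calls were made against controls and 8 of them held with any 1 array left out: DDIT3 at Ra 48 h, CYCS, PARP1 and OAS1 at high-dose Nnm 24 h, and CYCS, FAIM, IFIT2 and OAS1 at high-dose Nnm 48 h.

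The genes whose levels ran most like each of 3 genes were found over the 48 arrays, after the mean of its set was subtracted from each value; the arrays share sets, controls and scaling, so r is given as a description. For TNFSF10 the highest Pearson's r were with CYP1B1 (0.827), TMPO (0.826), FAS (0.825), MMD (0.825) and SALL1 (0.816), so that FAS was the third of all genes, and the lowest with PYCR1 (-0.841), IL20RB (-0.821), TES (-0.816), SLC35B1 (-0.814) and PDIA6 (-0.80). For FAS they were highest with MMD (0.939), CHAF1A (0.879), WEE1 (0.878), SESTD1 (0.877) and DSCC1 (0.872) and lowest with RNF185 (-0.839), HSP90B1 (-0.836), TES (-0.834), SLC35B1 (-0.83) and OSBP (-0.82). MMD stood in the upper list, and TES and SLC35B1 in the lower list, of both genes. For TNFRSF10B they were highest with SLC7A1 (0.904), EXOSC6 (0.877), CYLD (0.877), SPIRE1 (0.875) and SLC38A1 (0.868) and lowest with NASP (-0.837), NCAPG (-0.837), VRK1 (-0.823), RPA2 (-0.82) and BUB1B (-0.819).

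Among the 10 genes themselves TNFSF10 and FAS ran together (r = 0.825 over 48 arrays, and 0.839 over 47 without the second Ra 48 h array). TNFRSF10B ran against both (-0.62 with TNFSF10 and -0.60 with FAS). TNFSF10 and TNFRSF21 had an r of 0.554 (0.581 over the 47), TNFRSF10D and TNFRSF1A 0.493 (0.501), and TNFRSF10D and CFLAR -0.437 (-0.48). TNFRSF10A and CASP8 had 0.514 over 48 arrays and 0.132 over the 47, so that this value rests on that 1 array.

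**Figure D5:**
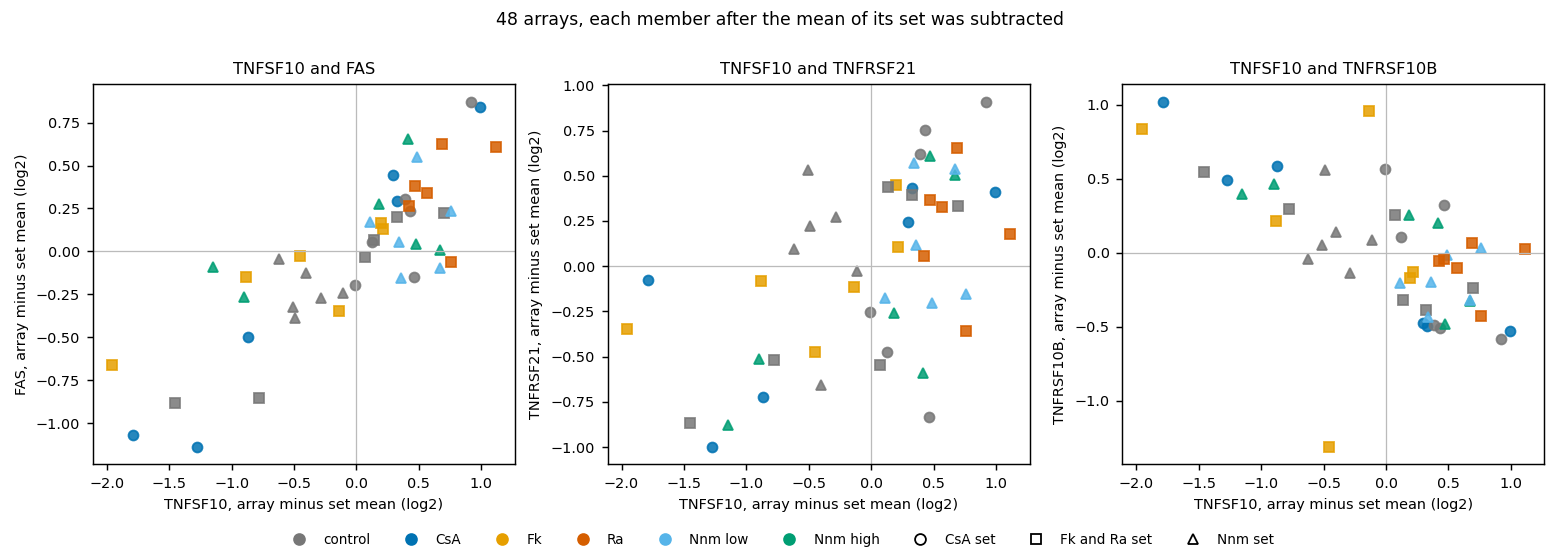
FAS, TNFRSF21 and TNFRSF10B (vertical axes) against TNFSF10 (horizontal axis), each as log2 level minus the mean of its set, with 1 point for each of 48 arrays. FAS goes up with TNFSF10 (r = 0.825), TNFRSF21 less closely (0.554), and TNFRSF10B goes down (-0.62).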

How the data were processed

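RNA was measured on 48 arrays of 54675 probe sets. The deposited values are log2 expression, made by the authors with GCRMA, per the submitters' processing notes; neither its version nor a genome build is given in the sources used here. GCRMA normalizes arrays together and shrinks dim probe sets to a floor, so differences of dim genes are understated. Probe sets with 1 symbol in the platform annotation (41091) were kept, those above log2 4 in at least 3 arrays (20960) were tested, and each of 11356 genes took its probe set of highest mean. limma 3.58.1 (R 4.3.3, statmod 1.5.0) fitted 1 mean per group over all arrays; 31 contrasts were tested two-sided with eBayes and Benjamini-Hochberg adjustment within each (called under 0.05). The median SE of a treatment difference was 0.257, and the number of arrays limits the precision. The fit was first tested on simulated data.

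The members and lists were chosen with earlier results of these data known. All 10 members are plotted in every group; of each pathway list the called genes of largest difference, up to 4 a comparison, are named, and DDIT3, FOXO3 and IRF1 always, singly or by their range. Arrays of the same number deviate together in the CsA set (18 of 18 pairs, r from 0.243 to 0.926). So do those of the Nnm set (45 of 45, 0.138 to 0.786), and both sets were taken as paired. In the Fk and Ra set 19 of 45 pairs were above 0.1, with r from -0.178 to 0.759. Its mean r was 0.104 for the same number and -0.051 for other pairs, and it was not taken as paired. Pairing comes from this check and the labels' replicate numbers. Alternatives changed the filter, the scaling, the probe set, the arrays fitted, the variance prior, the replicate block and single arrays. No column of values lacked a sample.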

Additional observations from a re-analysis of the deposited data

Results flagged for a closer look

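At 48 h the effects of CsA and Ra, each against the controls of its own set, differed for 3 of the genes by a test of the difference itself. The CsA effect minus the Ra effect was -3.08 for TNFSF10 (limma adjusted p = 0.000206, treated arrays below all controls with CsA and above all controls with Ra), -1.79 for FAS (0.000313) and 0.78 for CASP8 (0.014). CsA and Ra were run in different sets.

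The Ra effect at 48 h minus the Ra effect at 12 h was 0.72 for TNFRSF10C (limma adjusted p = 0.0472) and -0.87 for CASP8 (0.0235). For TNFRSF10C the 12 h control group, at 4.99, was the highest of the 16 groups, and every other group was within about 1 log2 unit of the filter. For CASP8 the 12 h groups of that set lay between 8.94 and 8.97.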

How the results depend on the processing

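Counts of called genes among the 10 (pairs of gene and comparison where a result spans several) are given as the reported count and then the alternative. With the replicate block they went from 1 to 2 at CsA 48 h, 0 to 1 at Nnm low 24 h, 0 to 1 at Nnm low 48 h and 0 to 2 at Nnm high 48 h, and were the same with arrays also centred over the genes tested; effects over time went from 2 to 5 and the other pathway genes from 24 to 44 with that centring. The Fk and Ra set was not taken as paired. There the block gave calls for TNFRSF21 at Ra 48 h (limma adjusted p = 0.0171) and TNFSF10 in the Ra effect over time (0.0379). With the block TNFRSF10B was also called in the CsA against Ra effect (0.0224). The block changed no other call of the 10 genes against controls. Quantile normalization gave 2 at CsA 48 h, 1 at Nnm high 48 h, 2 for Fk against Ra (reported 5) and 1 for effects over time. Arrays of the set alone gave 0 at CsA 48 h, 0 at Ra 12 h, 1 at Nnm low 24 h, 1 at Nnm high 48 h, 1 for Fk against Ra and 0 for effects over time. The groups of the contrast alone, with 4 residual degrees of freedom in a comparison of 2 groups, gave 0 at CsA 48 h, Ra 12 h, Ra 48 h (reported 4), Nnm high 24 h (reported 2), Fk against Ra, effects over time and CsA against Fk and Ra effects (reported 3), 1 at Nnm low 24 h and at Nnm low 48 h, 4 for treated cells over time (reported 7) and 6 for the pathway genes. Log2 above 6 gave 0 at Ra 12 h and 1 for effects over time, and no filter gave 1 at Nnm high 24 h and 1 for effects over time. Centring over all probe sets and eBayes with trend each gave 1 for effects over time, and the mean of all probe sets gave 0. Centring over the genes tested gave 2 for Fk against Ra, also without Ra 48 h replicate 2, where effects over time gave 0. It moved the calls over all genes at Ra 48 h from 2106 (337 higher, 1769 lower) to 1931 (1028 higher, 903 lower).

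With each array left out the counts ran from 0 to 2 at CsA 48 h, 0 to 1 at Fk 12 h, Ra 12 h and Nnm low 24 h, 3 to 5 at Ra 48 h, 0 to 3 at Nnm high 24 h, Nnm high 48 h and between doses, 1 to 5 for Fk against Ra, 0 to 4 for effects over time, 2 to 4 for CsA against Fk and Ra effects, 3 to 8 for controls, 6 to 9 for treated cells and 18 to 30 for the pathway genes. They stayed at 0 at CsA 12 h, Fk 48 h and Nnm low 48 h. Among the pairs of gene and comparison called against controls, 3 values of probe sets tested on their own turned sign, all of CFLAR. They were 0.0044 and 0.0086 at Ra 48 h and 0.12 at Nnm high 24 h. Probe sets of genes that were not called differed in sign in places as well, such as those of TNFRSF10A at Nnm high 24 h (-0.62 to 0.23). Apart from those stated, causes were not tested. TNFRSF10C, both groups of FOXO1 and the dim groups of NGFR and TNFRSF9 lie at or under the filter, where GCRMA compresses differences.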

Other observations

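In the Nnm set the second replicate stood apart for several of these genes. For TNFRSF10D the high dose minus the control of the same number was 2.08, -0.32 and 2.08 at 24 h, for CFLAR -0.81, -0.04 and -1.27, for TNFRSF21 -1.05, 0.34 and -0.97, and for TNFSF10 -0.39, 0.76 and -0.53. At 48 h the high dose gave 0.67, 0.78 and 0.82 for TNFSF10 and 0.66, 0.25 and 0.78 for FAS. Over all genes the second replicate's median size of difference was 0.228 at high dose 24 h, 0.220 at high dose 48 h, 0.203 at low dose 24 h and 0.193 at low dose 48 h, the smallest of the 3 each time. Without that number, TNFSF10 in high-dose cells rose from 24 h to 48 h by 1.32 (limma adjusted p = 0.0382), and TNFRSF10D was higher at the high than at the low dose at 24 h by 1.33 (0.0175).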
